A study of Mus musculus with 60 samples.

Results

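The autophagy and lysosome genes of the mouse kidney were examined as a list of 40 transcripts, chosen by name with earlier results of these data known. The list holds lysosomal enzymes and membrane proteins, the transcription factors TFEB and TFE3, and genes of autophagosome formation and of cargo selection. All 40 were matched by symbol to a row among the 55335 gene rows of the counts, and all 40 were among the 15546 genes retained for testing, which are those with at least 1 CPM (counts scaled to equal library size) in at least 1 sample. RNA was sequenced from the kidneys of 60 male mice of 2 genotypes, killed at 6 times of day, with 5 mice in each of the 12 groups. cKOt mice were Bmal1lox/lox/Pax8-rtTA/LC-1 Cre animals, in which doxycycline (DOX) turns on Cre and deletes Bmal1. Control mice were their Bmal1lox/lox littermates, which carried the floxed alleles without the Cre system. Mice of both genotypes, on a C57BL/6J background, drank DOX at 2 mg/ml with sucrose at 20 mg/ml for 2 weeks from the age of 8 weeks, and tissue was taken 4 weeks later. Light and dark phases lasted 12 h each, and zeitgeber time (ZT) 0 is the time of lights on. Pax8-rtTA is active in the renal tubule, so vessels, fibroblasts, glomeruli and immune cells keep Bmal1. The sample labels name the renal tubule, whereas the methods describe RNA from frozen pieces of whole kidney, so these other cells contribute RNA to every sample.

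Autophagy encloses part of the cytoplasm in a double membrane and delivers it to lysosomes, where acid hydrolases break it down. The ULK and PI3-kinase complexes start the membrane, WIPI and ATG proteins enlarge it and attach LC3 and GABARAP proteins to it, and cargo receptors such as p62 (Sqstm1) and BNIP3 link cargo to LC3. TFEB and TFE3 drive transcription of many lysosomal and autophagy genes when nutrients are scarce. Proximal tubule cells have many lysosomes, since they take up filtered protein by endocytosis and degrade it. BMAL1 with CLOCK, and TFEB or TFE3, all bind E-box letters around CACGTG, which is why the promoters of the genes are shown here.

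A promoter window from 250 bases before to 50 bases after an annotated start was found in the RefSeq table (assembly GRCm38.p6) for 32 of the 40 genes. CACGTG, which reads alike on both strands, was in a window of 12 of the 32 genes (37.5%), and among all 27025 genes with a window it was in 2187 (8.09%). The longer TCACGTG, on either strand and always overlapping a CACGTG, was in 9 of the 32 (28.1%) and in 4.29% of all genes with a window. The windows that held more than 1 CACGTG were those of Lamp1 with 4, and of Atg3, Ctsa, Ctsd, Gla and Mcoln1 with 2 each. By the genotype difference given further on, CACGTG was in 2 of 5 genes higher in cKOt mice, in 5 of 15 lower genes and in 5 of 12 genes without a call, so the letters were found with and without a difference in RNA. The stretches below are 120 bases long and are printed for members with different outcomes, with CACGTG in capitals. All of them end at the base before the RefSeq start site except that of Gla, which runs from 250 to 131 bases before it. Lamp1, Atg3, Ctsd, Bnip3 and Atg5 were lower in cKOt mice, Gla was higher, and Mcoln1 was not called.
Lamp1, chr8:13159041-13159160, plus strand: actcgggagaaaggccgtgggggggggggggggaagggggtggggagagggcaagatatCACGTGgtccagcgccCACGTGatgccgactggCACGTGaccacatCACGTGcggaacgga
Atg3, chr16:45158709-45158828, plus strand: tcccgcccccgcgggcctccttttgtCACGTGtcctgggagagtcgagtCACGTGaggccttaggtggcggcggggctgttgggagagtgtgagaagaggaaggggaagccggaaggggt
Ctsd, chr7:142387828-142387947, minus strand: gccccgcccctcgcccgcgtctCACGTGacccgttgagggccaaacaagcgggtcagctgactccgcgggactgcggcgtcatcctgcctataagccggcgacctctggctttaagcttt
Bnip3, chr7:138909507-138909626, minus strand: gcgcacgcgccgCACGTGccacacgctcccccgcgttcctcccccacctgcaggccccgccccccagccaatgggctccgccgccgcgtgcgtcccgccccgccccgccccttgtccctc
Atg5, chr10:44268219-44268338, plus strand: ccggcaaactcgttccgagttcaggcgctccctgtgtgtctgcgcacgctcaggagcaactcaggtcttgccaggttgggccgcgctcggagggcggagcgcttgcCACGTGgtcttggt
Gla, chrX:134601136-134601255, minus strand: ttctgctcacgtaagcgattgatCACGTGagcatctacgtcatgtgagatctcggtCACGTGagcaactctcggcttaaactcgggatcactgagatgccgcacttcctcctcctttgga
Mcoln1, chr8:3500399-3500518, plus strand: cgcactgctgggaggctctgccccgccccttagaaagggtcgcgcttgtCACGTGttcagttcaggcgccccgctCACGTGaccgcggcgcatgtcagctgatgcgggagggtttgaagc
In Lamp1 the 4 matches fell within the last 61 bases before the start site, and in Atg3 the matches began 94 and 71 bases before it.

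Each sample held 17791420 to 20906706 counts on genes (median 18545208.5). The targeted gene, listed as Arntl, was at 48.4 ± 10.2 CPM in control mice and 24.4 ± 1.57 CPM in cKOt mice at ZT0, and at 2.73 ± 0.825 and 18.5 ± 1.96 CPM at ZT8 (SD, n = 5 each). Its 6 group means lay between 17.4 and 24.4 CPM in cKOt mice and between 2.73 and 48.4 CPM in control mice. Among markers of other cells, 7 of 8 tested macrophage markers, 6 of 6 endothelial, 4 of 5 fibroblast and 3 of 3 tested T and B cell markers were lower in cKOt mice. Of 5 podocyte markers, from glomeruli, 1 was higher and 0 lower. Of 8 proximal tubule markers 3 were higher and 4 lower. By the same genotype difference, given further on, 23.2% of all genes tested were lower and 26.8% higher. The summed macrophage markers ranged from 83.9 to 161.7 CPM (median 126.5) in control and from 87.0 to 127.5 CPM (median 113.0) in cKOt mice. In bulk RNA, fewer cells of a type and less RNA per cell cannot be told apart. The part of these cells in the differences below was not tested. The library farthest from its group was cKOt ZT4 replicate 5, and among control mice it was ZT16 replicate 1, which held the highest Sqstm1 (607.9 CPM) and Pink1 (345.4 CPM) and the lowest Lamp2 (782.9 CPM) of the control mice. Without the first, Hexa, Lamp2, Atg3, Sqstm1, Bnip3 and Psap had log2 fold changes of 0.42, 0.32, -0.35, -0.34, -0.32 and -0.32, and without the second 0.42, 0.32, -0.36, -0.33, -0.33 and -0.32.

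More of the 40 genes were lower than higher in cKOt mice. Averaged over the 6 time points with equal weight, 17 were lower, 6 were higher and 17 did not pass the threshold, at a Benjamini-Hochberg adjusted p of at most 0.05 over all retained genes (edgeR's quasi-likelihood test, fitted with 2 factors of unwanted variation that RUVs estimates from replicates). The called genes were 57.5% of the list, against 50.0% of all genes tested. In direction, 42.5% of the list was lower against 23.2% of all genes, and 15% was higher against 26.8%. The differences were small. The median log2 fold change of the 40 genes was -0.05 and that of all genes 0.01, the median of the absolute values was 0.073 against 0.101, and 6 of the 40 passed a fold of 1.2. These were Hexa and Lamp2, which were higher, and Atg3, Sqstm1, Bnip3 and Psap, which were lower.

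**Figure D1:**
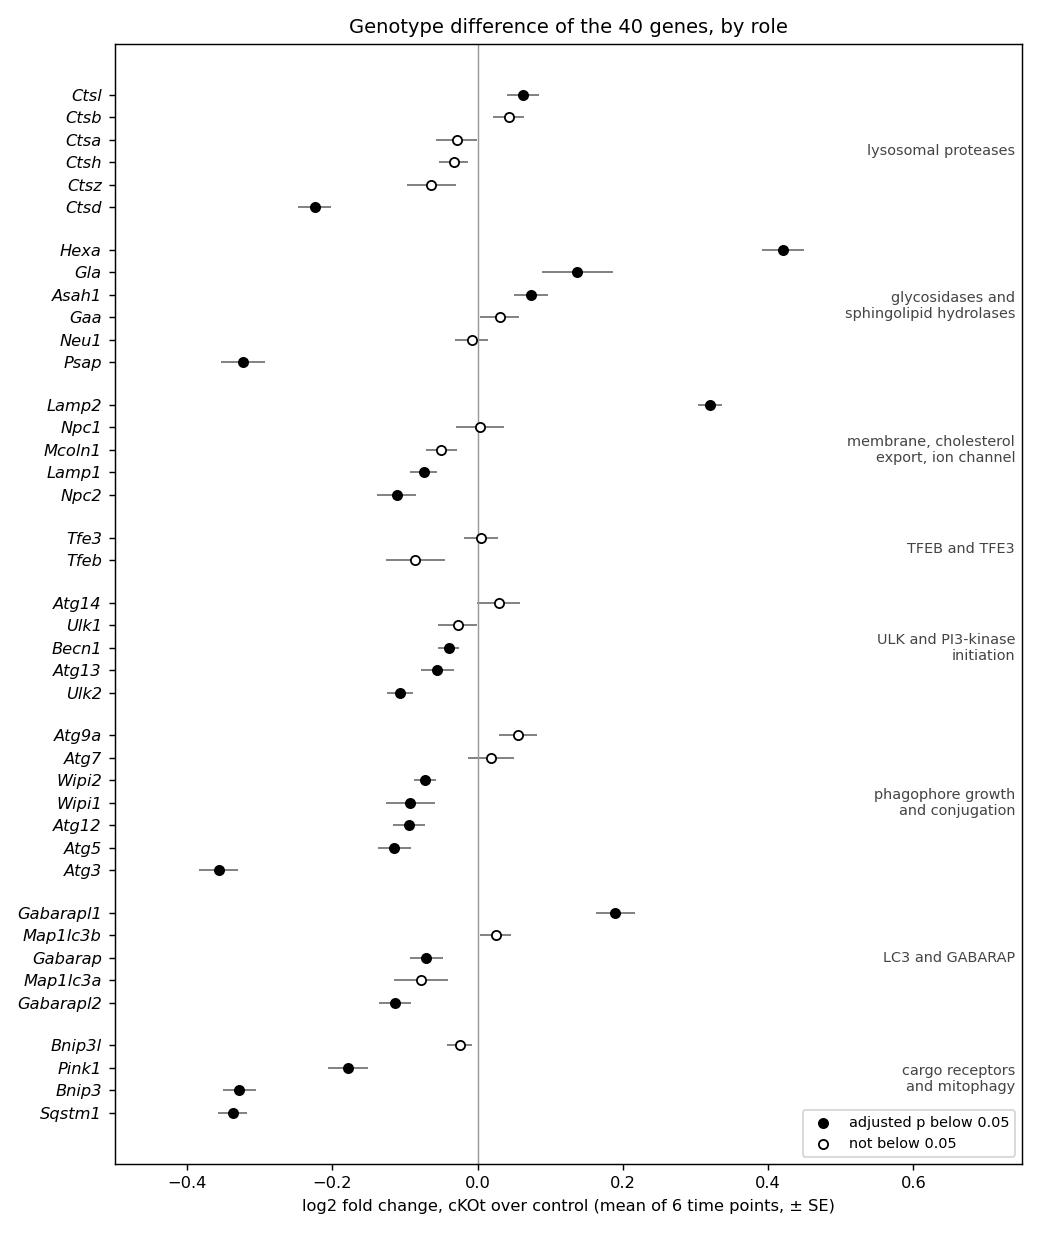
The log2 fold change of cKOt over control mice, averaged over 6 time points, is plotted for the 40 genes in 8 groups by role, with bars for the standard error and filled points for an adjusted p below 0.05. Hexa (0.42) and Lamp2 (0.32) lie far to the right, Atg3, Sqstm1, Bnip3 and Psap lie between -0.36 and -0.32, and most other points lie near 0.

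Among the 6 lysosomal proteases, Ctsd (cathepsin D, an aspartic protease) was lower in cKOt mice, Ctsl (cathepsin L, a cysteine protease) was slightly higher, and the other 4 did not pass the test. Ctsd was at 224 ± 19.8 CPM in 30 control mice (183.6 lowest, 222.6 median, 285.7 highest) and at 190 ± 26.3 CPM in 30 cKOt mice (121.7, 195.7 and 251.3). The ranges overlapped, although the medians of the cKOt groups were below those of the control groups at all 6 time points. Its log2 fold change was -0.22 ± 0.023 (SE), a level 14.4% lower, with an adjusted p of 2.34e-12, and it was called at each of the 6 time points taken alone. At ZT0 the control mice had 216.8, 221.8, 223.5, 230.9 and 240.8 CPM and the cKOt mice 189.6, 194.5, 195.8, 206.3 and 209.2 CPM, without overlap. Ctsl was at 633 ± 64.2 CPM in control mice and 663 ± 38.7 CPM in cKOt animals (SD, n = 30 each), for a log2 fold change of 0.06 ± 0.022 with an adjusted p of 0.0152. That call was lost without filtering and without replicate 1, 3 or 4, when the adjusted p lay between 0.0528 and 0.154. For Ctsa, Ctsb, Ctsh and Ctsz, which encode cathepsins A, B, H and Z, the log2 fold changes ranged from -0.06 to 0.04, with adjusted p values from 0.0879 to 0.398.

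The enzymes of glycan and sphingolipid breakdown were divided, with 3 of 6 higher and 1 lower in cKOt mice. Hexa, on chromosome 9 from 59539540 to 59565109 (GRCm38), encodes the alpha subunit of hexosaminidase A, which trims GM2 ganglioside. It was at 49.4 CPM in the median control mouse (42.4 to 58.3) and at 66.0 CPM in the median cKOt mouse (56.5 to 84.3, n = 30 each). At ZT8 control mice had 46.0, 47.4, 48.1, 48.6 and 50.1 CPM and cKOt mice 56.5, 64.8, 66.4, 77.3 and 78.3 CPM. Every cKOt mouse was above every control mouse of its time point at all 6 time points. The log2 fold change was 0.42 ± 0.029, a level 33.8% higher, with an adjusted p of 1.20e-18, and the difference at single time points ranged from 0.34 to 0.51. Within the 6 library batches it ranged from 0.31 to 0.56.

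Psap was the lower gene of this group. It encodes prosaposin, the precursor of the saposins that help hydrolases to reach sphingolipids, and lies on chromosome 10 from 60277627 to 60302597. Its level was 1717 ± 163 CPM in control mice and 1365 ± 153 CPM in cKOt animals (SD, n = 30 each), 20.1% lower, with a log2 fold change of -0.32 ± 0.030 and an adjusted p of 1.84e-13. At ZT20 the control mice had 1601, 1683, 1723, 1742 and 1761 CPM and the cKOt mice 1170, 1194, 1235, 1296 and 1343 CPM. The genotypes did not overlap at ZT4, ZT16 and ZT20, and at ZT0 the difference at that time point missed the threshold (adjusted p = 0.0796). Gla (alpha-galactosidase A) was at 6.06 ± 0.760 CPM in control mice and 6.68 ± 0.939 CPM in cKOt mice, measured with 80 to 179 counts per sample, and Asah1 (acid ceramidase) at 135 ± 12.6 and 144 ± 14.0 CPM (SD, n = 30 each). Their log2 fold changes of 0.14 ± 0.049 and 0.07 ± 0.023 had adjusted p values of 0.0172 and 0.00694 by edgeR, which rose to 0.139 and 0.141 without replicate 3, and for Gla to 0.0792 without replicate 2. Neu1 (neuraminidase 1) at -0.01 and Gaa (acid alpha-glucosidase) at 0.03 were not called.

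Of the membrane and transport proteins, Lamp2 was higher in cKOt mice, and Lamp1 and Npc2 were lower. LAMP1 and LAMP2 are the main glycoproteins of the lysosomal membrane, and a LAMP2 isoform serves as a receptor in chaperone-mediated autophagy. Lamp2, on chromosome X from 38401357 to 38456454, had 782.9 to 1162 CPM in control mice (median 982.9) and 1101 to 1602 CPM in cKOt mice (median 1231). At ZT16 control mice had 782.9, 925.3, 966.2, 983.0 and 997.8 CPM and cKOt mice 1116, 1136, 1152, 1213 and 1234 CPM. The cKOt mice were all above the control mice at 5 of 6 time points, and at ZT0 the lowest cKOt mouse (1153 CPM) was just below the highest control mouse (1162 CPM). The log2 fold change was 0.32 ± 0.016, a level 24.8% higher, with an adjusted p of 6.46e-24. Counts were made over whole genes, so the isoforms of Lamp2 were not separated.

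Lamp1 went the other way by a small amount. It was at 1373 ± 54.4 CPM in control mice and 1305 ± 65.6 CPM in cKOt animals (SD, n = 30 each), for a log2 fold change of -0.07 ± 0.018 with an adjusted p of 6.33e-04, and the genotypes overlapped at all 6 time points. Npc2, which hands cholesterol to NPC1 in the lysosome, had a log2 fold change of -0.11 ± 0.027 (adjusted p = 4.03e-04). Npc1, the cholesterol exporter, was at 0.00 ± 0.033 (adjusted p = 0.955). Mcoln1, the calcium channel TRPML1, was at -0.05 ± 0.022 and just missed the threshold by edgeR's test (adjusted p = 0.0516). Within each of the 6 library batches Lamp2 was higher and Lamp1 lower in cKOt mice.

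**Figure D2:**
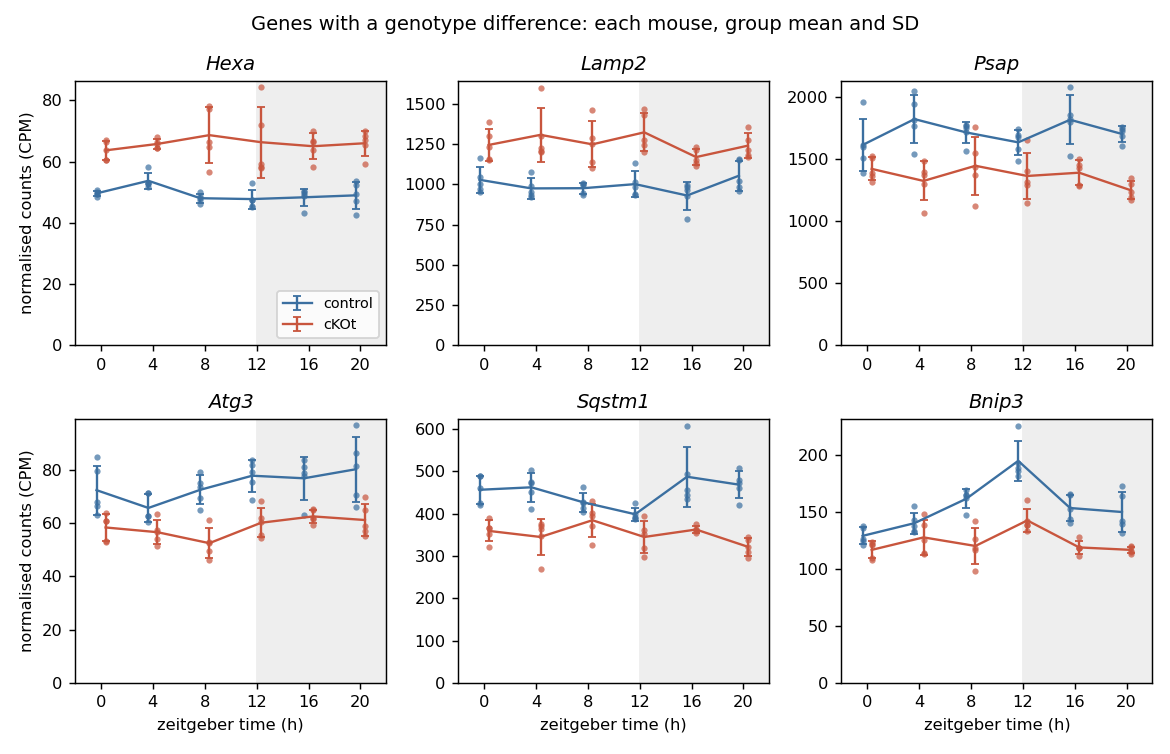
Normalised counts (CPM) of each mouse are plotted against zeitgeber time for Hexa, Lamp2, Psap, Atg3, Sqstm1 and Bnip3, with lines and bars for the mean and SD of 5 mice and shading from lights off. All cKOt points of Hexa lie above the control points of their time point and those of Lamp2 do so at 5 of 6 time points, the points of the other 4 genes overlap at 2 to 4 time points with lower cKOt means, and the control mice have a peak of Bnip3 at ZT12 (195 CPM) that is lower in cKOt mice (143 CPM).

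Tfeb and Tfe3, whose products drive many genes of this list, were not called. Tfeb was at 9.47 ± 2.63 CPM in control mice and 8.84 ± 2.80 CPM in cKOt animals (SD, n = 30 each), with 52 to 354 counts per sample, a log2 fold change of -0.09 ± 0.040 and an adjusted p of 0.0726. Tfe3 was at 25.7 ± 2.06 and 25.6 ± 2.44 CPM, a log2 fold change of 0.00 ± 0.024 with an adjusted p of 0.893, and its sign depended on the scaling. At ZT12 alone, Tfeb was lower in cKOt mice (-0.33, adjusted p = 0.0138), where control mice had 5.17, 7.82, 9.12, 10.0 and 10.3 CPM and cKOt mice 3.81, 4.55, 7.14, 7.30 and 8.17 CPM, with overlap. The average Tfeb difference passed the threshold under 4 of 16 alternative settings, with DESeq2 among them (adjusted p = 0.0374), and its adjusted p ranged from 0.0168 to 0.518 over all 16, and the test of whether the Tfeb difference varied between time points did not pass (edgeR, adjusted p = 0.230). mRNA does not show where the TFEB and TFE3 proteins are in the cell.

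In the complexes that start autophagy, 3 of 5 genes were lower by small amounts. ULK1 and ULK2 are related kinases, ATG13 is their partner, and BECN1 and ATG14 belong to the PI3-kinase complex. Ulk2 was at 78.3 ± 5.02 CPM in control mice and 73.0 ± 4.28 CPM in cKOt animals (SD, n = 30 each), for a log2 fold change of -0.11 ± 0.018 with an adjusted p of 1.63e-06, and the genotypes did not overlap at ZT8 and ZT16. Atg13 had a log2 fold change of -0.06 ± 0.023 (adjusted p = 0.0367) and Becn1 one of -0.04 ± 0.015 (adjusted p = 0.0216). The Atg13 call was lost under 7 of 16 alternative settings, with adjusted p values from 0.0526 to 0.243, and the Becn1 call under 4 of 16, from 0.106 to 0.215. Ulk1 at -0.03 (53.5 ± 7.19 and 51.7 ± 8.96 CPM) and Atg14 at 0.03 were not called.

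Genes of phagophore growth and conjugation had 5 of 7 members lower in cKOt mice and none higher. Atg3, on chromosome 16 from 45158785 to 45188538, encodes the E2-like enzyme that passes LC3 to its lipid. It was at 74.4 ± 8.82 CPM in control mice (60.5 lowest, 74.6 median, 96.8 highest) and at 58.6 ± 5.67 CPM in cKOt mice (46.0, 59.1 and 70.0). At ZT8 control mice had 65.2, 69.4, 73.8, 75.3 and 79.5 CPM and cKOt mice 46.0, 49.7, 52.8, 52.8 and 61.3 CPM. The genotypes did not overlap at ZT8 and ZT12 and shared part of their range at the other 4 time points. The log2 fold change of -0.36 ± 0.027, a level 21.9% lower, was the lowest of the 40 genes (adjusted p = 7.58e-17), it was called at each time point, and within batches it ranged from -0.42 to -0.27.

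The other lower genes of this group changed less. Atg5 (-0.11 ± 0.023, adjusted p = 3.93e-05) and Atg12 (-0.09 ± 0.021, adjusted p = 2.17e-04) encode the conjugate that helps ATG3 to place LC3 on membranes. Wipi2 (-0.07 ± 0.016, adjusted p = 8.62e-05) and Wipi1 (-0.09 ± 0.034, adjusted p = 0.0183) encode proteins that bind PI3P on the phagophore. Atg9a, a lipid scramblase carried by vesicles, was at 0.06 and Atg7, the E1-like enzyme that activates LC3 and ATG12, at 0.02, and neither was called. Atg7 was at 17.4 ± 1.91 CPM in control mice and 17.4 ± 2.31 CPM in cKOt mice. The Wipi1 call was lost without replicate 3 or 5 and with the library batch in place of the RUVs factors, with adjusted p values from 0.0620 to 0.214, and the Atg12 call was lost with the library batch (0.0510).

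Among the 5 LC3 and GABARAP genes, Gabarapl1 was higher and Gabarap and Gabarapl2 lower in cKOt mice, and neither Map1lc3a nor Map1lc3b was called. All 5 encode ubiquitin-like proteins that are attached to the autophagosome membrane. Gabarapl1 was at 531 ± 72.0 CPM in control mice (425.1 lowest, 524.8 median, 680.2 highest) and at 611 ± 111 CPM in cKOt mice (463.1, 603.3 and 866.2). The log2 fold change was 0.19 ± 0.027 with an adjusted p of 2.91e-08. The difference was unequal over the day: at ZT8 control mice had 575.7, 580.1, 601.4, 618.2 and 644.5 CPM and cKOt mice 695.6, 715.3, 741.9, 751.2 and 866.2 CPM, without overlap, and at ZT20 the log2 fold change was 0.00. The interaction test of that inequality did not pass the threshold (edgeR, adjusted p = 0.147).

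Gabarap was at 299 ± 21.9 CPM in control mice and 286 ± 20.6 CPM in cKOt animals, for a log2 fold change of -0.07 ± 0.023 (adjusted p = 0.00958) that was lost under 4 of 16 settings, with adjusted p values from 0.0705 to 0.178. Gabarapl2 was at 53.5 ± 3.18 and 49.5 ± 2.75 CPM, a log2 fold change of -0.11 ± 0.022 (adjusted p = 1.95e-05). Map1lc3b, at 117 ± 11.1 and 118 ± 10.7 CPM, had a log2 fold change of 0.02 ± 0.021 (adjusted p = 0.344), and Map1lc3a, at 31.2 ± 3.37 and 29.3 ± 5.20 CPM, one of -0.08 ± 0.037 (adjusted p = 0.0735; SD, n = 30 each). The reads were counted where they mapped to a gene, and the family members are related in sequence.

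The cargo receptors and mitophagy genes held the lowest median of the 8 groups (-0.25), with 3 of 4 lower in cKOt mice. Sqstm1, on chromosome 11 from 50199366 to 50210827, encodes p62, which binds ubiquitin and LC3 and is itself degraded by autophagy. It was at 450 ± 46.2 CPM in control mice (388.2 lowest, 448.7 median, 607.9 highest) and at 353 ± 34.7 CPM in cKOt mice (269.3, 359.6 and 429.0), with a log2 fold change of -0.34 ± 0.020 and an adjusted p of 4.47e-21. At ZT20 control mice had 420.5, 461.6, 472.4, 480.9 and 508.6 CPM and cKOt mice 294.6, 309.5, 321.6, 336.8 and 345.8 CPM. At ZT12 they had 388.2, 390.2, 391.9, 398.2 and 425.1 CPM and 298.1, 318.3, 352.0, 361.3 and 395.3 CPM. The genotypes were apart at ZT0, ZT4, ZT16 and ZT20 and overlapped at ZT8 and ZT12.

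Sqstm1 was also the only one of the 40 genes (2.5%) whose genotype difference varied between time points, by edgeR's interaction test with an adjusted p of 9.26e-04, against 3.08% of all genes tested. The log2 fold change was -0.54 at ZT20 and -0.44 at ZT16, and it was -0.17 at ZT12 and -0.20 at ZT8. The control level was lowest at ZT12, at 399 ± 15.2 CPM, and the cKOt level was highest at ZT8, at 385 ± 38.6 CPM (SD, n = 5 each). The interaction was called in each fit without 1 replicate number, with adjusted p values from 0.00654 to 0.0392. It was not called without the RUVs factors (adjusted p = 0.197) or with the library batch in their place (adjusted p = 0.218), although the average difference was called in both.

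Bnip3, on chromosome 7 from 138890836 to 138909519, encodes a mitochondrial receptor for mitophagy. It was at 155 ± 24.0 CPM in control mice (120.7 lowest, 150.0 median, 225.8 highest) and at 124 ± 13.6 CPM in cKOt mice (98.1, 119.8 and 160.5), a log2 fold change of -0.33 ± 0.023 with an adjusted p of 2.10e-18. At ZT12 control mice had 182.0, 185.8, 188.8, 193.0 and 225.8 CPM and cKOt mice 133.4, 138.4, 139.0, 142.3 and 160.5 CPM. The genotypes did not overlap from ZT8 to ZT20, and at ZT0 the difference missed the threshold (-0.14, adjusted p = 0.0889). The interaction missed it narrowly by edgeR's test (adjusted p = 0.0502), and over the 16 alternative settings its adjusted p ranged from 0.0139 with DESeq2 to 0.265 without replicate 4.

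Pink1, the kinase that marks damaged mitochondria, was at 220 ± 33.0 CPM in control mice and 191 ± 30.2 CPM in cKOt animals (SD, n = 30 each), 11.6% lower, with a log2 fold change of -0.18 ± 0.028 and an adjusted p of 3.30e-07. It was called at ZT12, ZT16 and ZT20, when the log2 fold change was -0.24 to -0.30. At ZT16 the control mice had 208.8, 214.4, 215.1, 219.2 and 345.4 CPM and the cKOt mice 179.8, 203.3, 204.2, 214.9 and 215.1 CPM, so the ranges overlapped and 1 control mouse lay far above the others. Bnip3l, a relative of Bnip3 also called Nix, was at 98.3 ± 7.62 and 97.8 ± 10.7 CPM, a log2 fold change of -0.02 ± 0.017 (adjusted p = 0.227).

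When time points were taken alone, the number of genes called lower was largest at ZT16 and ZT20, an order that was lost with the library batch in place of the RUVs factors. The genes higher in cKOt mice numbered 3 at ZT0 (6.63% of all genes tested were higher), 2 at ZT4 (6.20%), 3 at ZT8 (10.6%), 3 at ZT12 (10.3%), 3 at ZT16 (10.0%) and 2 at ZT20 (5.98%). The lower genes numbered 3 at ZT0 (5.49% of all genes tested were lower), 5 at ZT4 (6.34%), 5 at ZT8 (9.29%), 7 at ZT12 (10.8%), 11 at ZT16 (9.75%) and 11 at ZT20 (7.79%). Hexa and Lamp2 were called higher, and Ctsd, Atg3 and Sqstm1 lower, at each of the 6 time points. Genes called lower at ZT16 or ZT20 but not in the light phase included Wipi1, Wipi2, Ulk2, Atg13, Npc2 and Pink1, and whether their differences varied with time was not called by the interaction test (adjusted p from 0.155 to 0.889). Without the RUVs factors the lower genes numbered 2, 3, 2, 3, 7 and 6 from ZT0 to ZT20. With the library batch in their place they numbered 2, 7, 2, 3, 5 and 7, so that ZT4 held as many as ZT20.

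In sign alone, 15 of the 40 genes (37.5%) were lower and 5 (12.5%) were higher at all 6 time points, against 16.3% and 19.3% of all genes tested. The 5 were Hexa, Lamp2, Gla, Asah1 and Gabarapl1. Groups that did not overlap in 1 direction at 4 or more of the 6 time points were found for 4 of the 40 genes (10%), namely Hexa, Lamp2, Sqstm1 and Bnip3, against 4.20% of all genes tested.

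**Figure D3:**
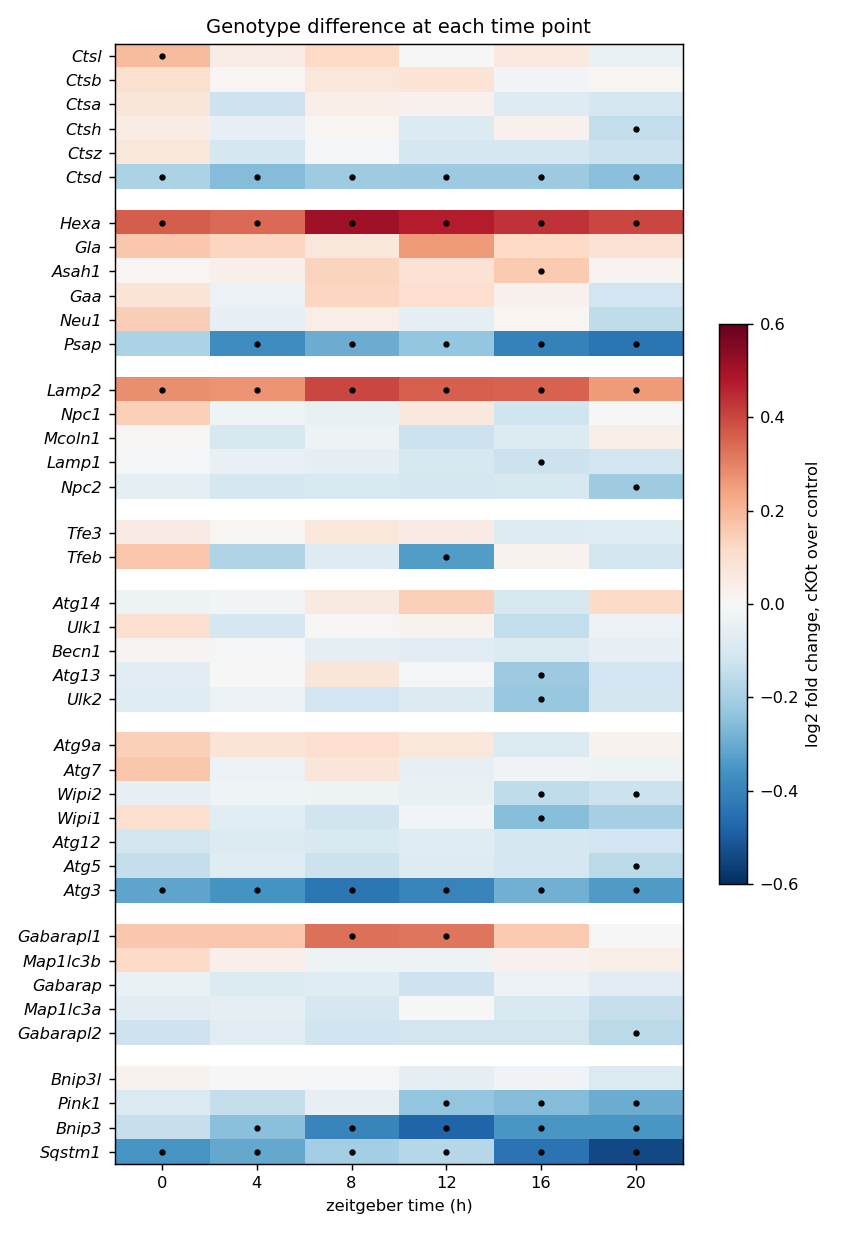
Colour shows the log2 fold change of cKOt over control mice for each of the 40 genes (rows, by role) at each of 6 time points (columns), and a dot marks an adjusted p below 0.05. Hexa and Lamp2 are red and Ctsd, Atg3 and Sqstm1 are blue with dots in all 6 columns, and the columns at ZT16 and ZT20 hold 11 lower genes each.

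Time of day was called for 17 of the 40 genes in control mice (42.5%) and for 16 in cKOt mice (40%), by edgeR's F test over the 6 time points within a genotype, against 30.6% and 26.6% of all genes tested. Without the RUVs factors the control count was 13 (32.5%, against 22.2% of all genes) and the cKOt count 9 (22.5%, against 23.4%), and with the library batch in their place they were 13 (32.5%, against 24.3%) and 10 (25%, against 24.4%). The share in cKOt mice was thus near that of all genes in both of these fits. With the RUVs factors, 12 genes were called in both genotypes, 5 in control mice alone and 4 in cKOt mice alone. The difference between genotypes was tested by the interaction, which was called for Sqstm1 alone. In control mice 11 of the 17 peaked in the light phase, before ZT12, and in cKOt mice 14 of the 16 did. Of all genes called for time of day, 47.9% in control and 48.7% in cKOt mice peaked in the light phase. In control mice Bnip3 (ZT11.9) and Pink1 (ZT12.5) lay close to the ZT12 edge, on either side. The 14 genes of cKOt mice include Sqstm1, whose call there was lost under 13 of 16 alternative settings. The split by phase was not computed without the RUVs factors or with the library batch. The peak-to-trough amplitudes of a 24 h curve had a median of 0.20 (log2) in control mice and 0.25 in cKOt mice over the called genes of the list, and of 0.31 and 0.30 over all called genes.

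By the model selection of dryR at a BIC weight of at least 0.65, 16 of the 40 genes were rhythmic in control mice (40%, against 33.9% of all genes) and 15 in cKOt mice (37.5%, against 31.0%). A rhythm common to both genotypes was assigned to 10 genes, namely Ctsa, Neu1, Ulk1, Atg14, Wipi1, Atg3, Atg5, Atg7, Map1lc3b and Bnip3l. A rhythm that differed between genotypes was assigned to Atg13, Gabarapl1, Sqstm1 and Bnip3. Lamp2 and Mcoln1 were given a rhythm in control mice only and Gaa in cKOt mice only, 13 genes were given no rhythm, and 10 were not assigned. A model weight is not a test, and without the RUVs correction Atg13, Sqstm1, Bnip3, Ctsa and Atg7 were no longer assigned and Lamp2, Mcoln1 and Gaa were given no rhythm. Some assigned rhythms were not called by edgeR's time-of-day test. In control mice these were Lamp2, Mcoln1, Ctsa and Atg3 (adjusted p = 0.0828, 0.0792, 0.164 and 0.125), and in cKOt mice Atg5 and Atg7 (0.113 and 0.0616).

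Wipi1 had the largest amplitude of the list in both genotypes. In control mice it had 28.2, 31.8, 35.5, 36.0 and 37.5 CPM at ZT20 and 50.8, 51.7, 53.4, 56.0 and 56.6 CPM at ZT4, and in cKOt mice 27.4, 28.2, 28.5, 31.2 and 34.8 CPM at ZT20 and 44.2, 46.5, 48.7, 50.7 and 54.2 CPM at ZT4. Within each genotype the ZT4 mice were all above the ZT20 mice. The amplitude was 0.77 with a peak at ZT7.9 in control mice and 0.87 with a peak at ZT7.2 in cKOt mice (edgeR, adjusted p = 1.33e-11 and 3.02e-12 for time of day, 0.367 for the interaction).

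Gabarapl1 had the next largest amplitude in cKOt mice and, after Bnip3, in control mice, with a control amplitude of 0.43 peaking at ZT6.7 and a cKOt amplitude of 0.67 peaking at ZT7.6. The group means ran from 452 ± 27.8 CPM at ZT16 to 610 ± 49.4 CPM at ZT4 in control mice, and from 495 ± 42.0 CPM at ZT20 to 754 ± 66.4 CPM at ZT8 in cKOt mice (SD, n = 5 each). Atg13 had amplitudes of 0.24 and 0.45 with peaks at ZT9.1 and ZT7.8. For both genes the cKOt amplitude was the larger value, and their interaction tests did not pass (edgeR, adjusted p = 0.147 and 0.155).

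Bnip3 showed the opposite order, with an amplitude of 0.45 in control and 0.18 in cKOt mice and peaks at ZT11.9 and ZT11.2. Its control means rose from 129 ± 7.50 CPM at ZT0 to 195 ± 17.6 CPM at ZT12, and its cKOt means from 117 ± 7.54 to 143 ± 10.4 CPM (SD, n = 5 each). Sqstm1 peaked at ZT20.8 in control mice with an amplitude of 0.18 and at ZT7.7 in cKOt mice with one of 0.15. Its time-of-day call in cKOt mice (edgeR, adjusted p = 0.0471) was lost under 13 of 16 settings, with adjusted p values up to 0.177.

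Neu1, Ulk1 and Map1lc3b, which were assigned a common rhythm, had peaks in both genotypes between ZT6.1 and ZT9.1. Neu1, which removes sialic acid from glycoproteins, had amplitudes of 0.33 in control and 0.40 in cKOt mice, Ulk1 had 0.33 and 0.34, and Map1lc3b had 0.30 and 0.20. In cKOt mice the time-of-day calls of Ulk1 and Map1lc3b were lost without the RUVs factors (edgeR, adjusted p = 0.120 and 0.124). Over the 16 alternative settings the Ulk1 call was lost under 2 and the Map1lc3b call under 4. Among the latter were 2 of the 5 fits without 1 replicate number, with adjusted p values up to 0.108. Ulk1 in control mice went from 37.9, 45.1, 47.8, 48.1 and 50.5 CPM at ZT0 to 57.4, 61.7, 61.8, 63.0 and 65.1 CPM at ZT4, without overlap. Tfeb was at its highest at night, with a peak at ZT20.3 and an amplitude of 0.38 in cKOt mice, where time of day was called (edgeR, adjusted p = 2.80e-04). In control mice it had an amplitude of 0.22 and was not called (adjusted p = 0.273), and the interaction was not called either (0.230).

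**Figure D4:**
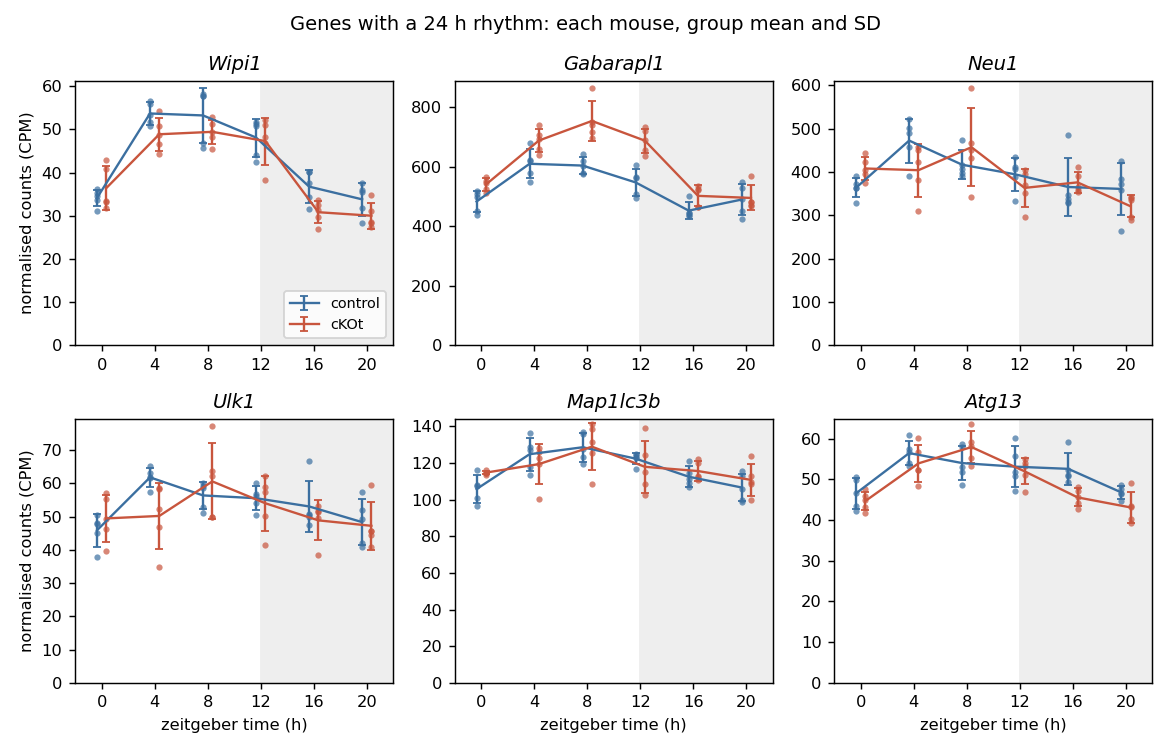
Normalised counts (CPM) of each mouse are plotted against zeitgeber time for Wipi1, Gabarapl1, Neu1, Ulk1, Map1lc3b and Atg13, with the mean and SD of 5 mice and shading from lights off. All 6 curves are higher at ZT4 and ZT8 than at ZT20 in both genotypes, and Gabarapl1 reaches 754 CPM in cKOt and 604 CPM in control mice at ZT8.

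Per kilobase of exon, with all annotated exons of a gene joined, levels spread widely over the list. Psap (562 CPM per kb), Lamp1 (500.5 CPM per kb) and Gabarapl1 (284 CPM per kb) were highest over all mice, and Tfeb (1.62 CPM per kb), Gla (1.95 CPM per kb) and Atg7 were lowest. Among the LC3 and GABARAP genes the order per kilobase was Gabarapl1, Gabarap, Map1lc3a, Gabarapl2 and Map1lc3b. In control mice Gabarap was at 162 ± 11.9 CPM per kb and the next gene, Map1lc3a, at 26.5 ± 2.85 CPM per kb (SD, n = 30 each). Map1lc3a overlapped within its SD with Gabarapl2, at 23.0 ± 1.37 CPM per kb, and Map1lc3b was lower, at 15.5 ± 1.48 CPM per kb. This order depends on the annotated exon length, which was 7517 bases for Map1lc3b and 1181 for Map1lc3a. Without division by length, Map1lc3b was the higher of these 2 in control mice, at 117 against 31.2 CPM. Which exons the kidney transcripts hold was not tested.

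Of 160 further genes of the same pathways 158 were tested, with 45 higher and 49 lower in cKOt mice (edgeR, adjusted p of at most 0.05). Their median log2 fold change was 0.00. Of all genes tested, 26.8% were higher and 23.2% lower, and the counts of each list below are to be read beside these shares. Of 22 subunits of the V-ATPase, the pump that acidifies lysosomes, 7 were higher and 7 lower, with Atp6v0a4 at 0.21 ± 0.025 and Atp6v0e2 at 0.20 ± 0.045. Both of these belong to the membrane sector of the pump. Atp6v1b1 (0.15 ± 0.025) and Atp6v0d2 (0.18 ± 0.028), which are also in the list of intercalated cell markers, were among the higher subunits. Atp6v1d (-0.18 ± 0.019) and Atp6v0a1 (-0.16 ± 0.026) were among the lower ones. The part of intercalated cells in this split was not tested. Of 33 further lysosomal hydrolases, 10 were higher and 13 lower. Gusb (beta-glucuronidase) was at 116 ± 33.2 CPM in control mice and 54.9 ± 8.29 CPM in cKOt animals, for a log2 fold change of -1.08 ± 0.081 (adjusted p = 7.27e-17).

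A list of 33 genes covered mTORC1, the nutrient-sensing kinase complex that keeps TFEB out of the nucleus, its regulators, and Mitf and Tfec. Of these, 10 were higher and 11 lower, where 26.8% and 23.2% of all genes tested were. Mitf and Tfec, of the same family as Tfeb and Tfe3, were higher, at 0.19 ± 0.033 and 0.31 ± 0.040 (edgeR, adjusted p = 1.86e-06 and 2.76e-09). Mtor, the kinase of mTORC1, was at 390 ± 58.5 CPM in control mice and 274 ± 44.4 CPM in cKOt animals (SD, n = 30 each). Its log2 fold change was -0.50 ± 0.042 (adjusted p = 2.33e-15). Castor1, an arginine sensor of this pathway, was at 9.79 ± 2.89 and 4.91 ± 1.17 CPM, one of -0.95 ± 0.052 (adjusted p = 1.32e-22), and its difference varied between time points (adjusted p = 0.0347). Of 29 tested genes of further autophagy machinery 8 were higher and 8 lower, with Atg16l2 at 0.21 ± 0.045 and Tmem41b, a lipid scramblase, at -0.19 ± 0.021. Of 14 further selective autophagy receptors 3 were higher and 4 lower, and Tax1bp1, a ubiquitin-binding receptor, was at -0.27 ± 0.016. Of 18 tested lysosomal membrane proteins 5 were higher and 5 lower, with Mcoln2 at 0.24 ± 0.073 and Scarb2 at -0.18 ± 0.023. Of 9 genes of mannose 6-phosphate and sortilin routing 2 were higher and 1 lower. The higher ones were Sort1 (sortilin) at 0.29 ± 0.022 and M6pr, a mannose 6-phosphate receptor, at 0.11 ± 0.015. The lower one was Igf2r, another such receptor, at -0.22 ± 0.036.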

How the data were processed

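Kidney RNA of 60 mice was sequenced by the authors as single reads from stranded poly(A) libraries. Per the labels and processing notes, cutadapt 1.8 trimmed the reads, STAR 2.5.3a aligned them to GRCm38, and HTSeq 0.9.1 counted them per Ensembl gene. The deposited values are whole counts, without normalization or pooling. Reads outside genes were 7.17% to 10.6% of the counts on genes, ambiguous reads 0.953% to 1.27%, and both were left out. At these depths, genes near 1 CPM rest on few counts. Of 120 pairs of replicates, none agreed within sampling noise, with a lowest ratio of squared difference to that noise of 5.45.

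Genes reaching 1 CPM in any sample were kept (99.9% of counts), scaled by TMM and tested with edgeR 4.0.16 in R 4.3.3 (quasi-likelihood F test, a term per group, 2 RUVs factors), with Benjamini-Hochberg adjustment over all 15546 genes and a threshold of 0.05. Log2 fold changes are given with standard errors derived from the F statistic. CPM values are TMM-normalised, without RUVs correction. RUVs and the 5 models of dryR were written anew. The 24 h curves used RUVs-corrected log2 CPM (prior count 2). Groups, time points and replicate numbers came from the labels and library batches from a supplementary table, which also marks 1 deposited cKOt ZT16 sample for removal. It was kept. Symbols and positions are from GENCODE M21 on GRCm38, and promoters from RefSeq. The p-values rest on the spread between mice of a group that remains after the 2 RUVs factors.

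The members and all gene lists were chosen with earlier results of these data known. Members named with values are the 6 largest rises and 6 largest falls among called genes, those called in the interaction, the 6 largest amplitudes of each genotype among genes called for time of day, the LC3 and GABARAP genes, Tfeb and Tfe3, and the 3 highest and 3 lowest per kilobase. From each further list the 2 largest called changes are named, except for 2 genes that are not reported here. Other members, and some other genes of the further lists, are named beside their group. Of the other marker lists, 3 of 4 thick ascending limb, 2 of 3 distal convoluted tubule, 2 of 4 principal cell, 4 of 5 intercalated cell and 2 of 6 injury markers were higher in cKOt mice, and 1, 0, 1, 1 and 2 lower.

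Replicate numbers do not pair the mice: residuals correlated at 0.0043 on average over 330 pairs of samples with the same number and at -0.0010 over 1320 pairs with different numbers, and at 0.036 over 270 pairs of the same library batch. The procedure was tested on simulated data. Alternatives were DESeq2 1.42.0 size factors and tests, limma 3.58.1, other filters, no RUVs factors, the library batch or the replicate number as a term, and samples left out. Those without control ZT16 replicate 1 or cKOt ZT4 replicate 5 were chosen after seeing the data. No protein sequences were used here.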

Additional observations from a re-analysis of the deposited data

Results flagged for a closer look

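In 24 of 288 groups of 5 mice, over the 24 genes named by rule, the highest or lowest mouse was separated from the next by more than 0.71 of the range of its group, where chance alone flags about 1 in 20 (14.4 of 288). In control mice at ZT16, the highest mouse was apart for Neu1 (484.5 CPM, next 347.9), Tfeb (19.0, next 11.2), Ulk1 (66.6, next 50.7) and Pink1 (345.4, next 219.2), all in replicate 1, and for Gabarapl1 (501.8, next 444.3) in replicate 4. Without control ZT16 replicate 1, the genotype difference averaged over time points was called for 6 higher and 16 lower members, and the Atg13 call was lost (adjusted p = 0.0566). Other control mice apart were the highest at ZT4 for Hexa (58.3 CPM) and Pink1 (269.8), at ZT12 for Sqstm1 (425.1) and Bnip3 (225.8) and at ZT20 for Asah1 (167.3), and the lowest at ZT8 for Psap (1564), at ZT12 for Map1lc3b (116.8), at ZT16 for Hexa (43.3) and at ZT20 for Pink1 (148.9).

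In cKOt mice the highest mouse was apart at ZT4 for Lamp2 (1602 CPM) and Gabarapl2 (54.4), at ZT8 for Gla (9.20) and Gabarap (337.0), and at ZT20 for Ulk1 (59.6) and Gabarapl1 (569.5). The lowest was apart at ZT4 for Sqstm1 (269.3 CPM), at ZT8 for Asah1 (108.6), at ZT16 for Ulk1 (38.4) and at ZT20 for Asah1 (119.3). The genotype difference of Sqstm1 varied between time points by edgeR's interaction test (adjusted p = 9.26e-04).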

How the results depend on the processing

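The genotype difference averaged over time points was recomputed in 16 alternative fits, of which 2, without control ZT16 replicate 1 and without cKOt ZT4 replicate 5, were chosen after seeing the data. It was called for 6380 to 7770 genes, against 7778, and for 4 to 6 higher and 12 to 20 lower members, with 12 lower under the library batch, 14 without RUVs factors and 20 with DESeq2. Calls at single time points depended on the RUVs factors more. Without them, the genes called were 983 at ZT0, 2013 at ZT8, 1853 at ZT16, 1407 at ZT20 and 263 in the interaction, and the members lower were 3 at ZT4, 2 at ZT8, 3 at ZT12, 7 at ZT16 and 6 at ZT20, with 0 in the interaction and 9 for time of day in cKOt mice. With the library batch in their place, the genes called were 1130 at ZT0, 3091 at ZT4, 1991 at ZT8, 1829 at ZT16, 1419 at ZT20 and 312 in the interaction, and the members lower were 7 at ZT4, 2 at ZT8, 3 at ZT12, 5 at ZT16 and 7 at ZT20, with 1 higher at ZT20, 0 in the interaction and 10 for time of day in cKOt mice. The interaction was called for 2 members, Bnip3 being added, with DESeq2 size factors, with DESeq2 tests, with limma-trend and without the marked sample. Without filtering, 7 members were lower at ZT20. Over the fits that left out samples, the members lower were 4 to 8 at ZT8, 6 to 11 at ZT16 and 6 to 11 at ZT20, the interaction held 233 to 501 genes, and time of day 11 to 17 members in control mice and 2608 to 4333 genes in cKOt mice. The sign of the averaged difference turned in at least 1 fit for 6 of the 40 members, none of them called: Npc1 (-0.036 to 0.032 over all fits), Gaa (-0.016 with the library batch), Bnip3l (0.0034 with the library batch), Tfe3, at -0.0059 with DESeq2 size factors, -0.0058 with DESeq2 tests, -0.0066 without RUVs factors, -0.011 with the library batch and -0.016 to 0.028 with samples left out, among them -0.0035 without cKOt ZT4 replicate 5; Neu1, at -0.023 to 0.0065 with samples left out (0.00034 without control ZT16 replicate 1); and Ulk1, at -0.070 to 0.020. The cause was not tested. With the replicate number as a block, the averaged difference was called for 7734 genes, 6 members higher and 17 lower, and the block moved no count of calls by more than 1.5 times. The identity of the LC3 and GABARAP proteins was not run.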
